A study of Mus musculus with 4 samples.

Results

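The regions over the long noncoding RNA Malat1, the ribonuclease P RNA Rpph1 and the small nucleolar RNA Snord17 with its host gene Snx5 were examined in RNA captured from mouse hearts with an antibody against N4-acetylcytidine (ac4C). They were taken from the deposited table by gene name, which gave 4 of 558 distinct regions: 2 over Malat1, 1 over Rpph1 and 1 shared by Snord17 and Snx5. Hearts came from C57BL/6 mice that all carried the treatment label HFD+STZ+Exercise. The series concerns diabetic cardiomyopathy, and this treatment was common to both groups. The groups were 2 libraries labelled control and 2 labelled NAT10 knockout. NAT10 is the acetyltransferase that makes ac4C. Age, knockout driver and the animal behind each library are not in the labels used here, so the spread that p-values rest on may be partly technical. Nat10 was not analysed here, and the knockout label therefore had no check from its target. No library made without the antibody was used, so the amount of an RNA and its acetylation cannot be told apart, and in whole heart tissue neither can fewer cells of a type and less RNA per cell.

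Malat1 is a long nuclear transcript that collects at nuclear speckles, where splicing factors are stored. Rpph1 is the catalytic RNA of ribonuclease P, which cuts the leader from precursor transfer RNAs and also makes the 3′ end of Malat1. Snord17 is a box C/D small nucleolar RNA, a class that guides ribose methylation of ribosomal RNA, and it is processed from an intron of Snx5. Snx5 encodes a sorting nexin that takes part in the retrieval of membrane proteins from endosomes. In ribosomal RNA, ac4C lies within the trinucleotide CCG.

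In the GENCODE M21 annotation of GRCm38, Snord17 spans 238 bases on the minus strand, inside the 8352-base intron between exons 1 and 2 of the Snx5 transcript Snx5-201. Rpph1 spans 319 bases on the minus strand, of which 284 lie within the annotated gene Ccnb1ip1 on the same strand. Malat1 spans 6983 bases on the minus strand, and the unclassified transcript Gm37376 lies opposite its bases 280 to 732, counted from the Malat1 5′ end. One Malat1 region also overlapped Gm37376. The other overlapped no further gene and was listed with Gm55521, whose start lies 2941 bases from that of Gm37376 in the table's own coordinates. The table's positions are on another build than GRCm38 (5 of 238 genes checked had the same start), so the table's coordinates are not printed, and the regions' own ends were not used here.

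The sequences are shown because the RNAs differ in the trinucleotide in which ac4C lies in ribosomal RNA. For Snord17 (chr2:144265979-144266216, minus strand) the capitals mark the first TGATGA, which matches the box C motif, and the last CTGA, which matches box D. For Rpph1 (chr14:50807449-50807767, minus strand, first 300 of its 319 bases) and for Malat1 bases 280 to 579 (chr19:5802094-5802393, minus strand) the capitals mark CCG. All 3 are printed 5′ to 3′ from the GENCODE M21 transcripts.
Snord17: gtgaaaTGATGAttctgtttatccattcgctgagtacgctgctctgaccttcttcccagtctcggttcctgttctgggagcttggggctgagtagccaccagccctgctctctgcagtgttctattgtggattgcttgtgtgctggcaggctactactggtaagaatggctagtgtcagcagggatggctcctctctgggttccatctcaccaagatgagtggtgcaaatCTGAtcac
Rpph1: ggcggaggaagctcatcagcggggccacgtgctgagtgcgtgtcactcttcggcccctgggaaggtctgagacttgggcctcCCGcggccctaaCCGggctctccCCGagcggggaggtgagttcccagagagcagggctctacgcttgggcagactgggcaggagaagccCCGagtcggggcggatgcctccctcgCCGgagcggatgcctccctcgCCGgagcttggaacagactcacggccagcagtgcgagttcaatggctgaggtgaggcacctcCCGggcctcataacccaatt
Malat1: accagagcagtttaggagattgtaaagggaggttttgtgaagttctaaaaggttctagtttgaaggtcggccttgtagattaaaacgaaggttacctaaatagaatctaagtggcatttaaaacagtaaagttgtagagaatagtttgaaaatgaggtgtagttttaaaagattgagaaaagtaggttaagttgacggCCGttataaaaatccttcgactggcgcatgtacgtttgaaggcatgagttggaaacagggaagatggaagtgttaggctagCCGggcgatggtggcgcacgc

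Rpph1 held 8 CCG in its 319 bases, or 25.1 per 1000 bases, with 67.1% G and C. Snord17 held 0 CCG in 238 bases, at 51.7% G and C. Malat1 held 16 CCG in 6983 bases, or 2.29 per 1000, of which 2 lie opposite Gm37376. Over all 141767 transcripts of that annotation, read on the transcript strand, the density was 7.03 per 1000 bases, and 90.5% held at least 1 CCG. Among its 1507 small nucleolar RNA transcripts, 24.0% held a CCG, and 20.2% had TGATGA starting within the first 15 bases together with CTGA starting within the last 15, as Snord17 has. A match says only that the letters are there, and the trinucleotide was not tested as a site of acetylation.

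The counts over the listed regions summed to between 674687 and 920818 per library, the highest in knockout replicate 1, and these sums do not cover whole libraries. Of the heart muscle markers 5 of 7 were measured, with a summed level of 64869 to 67936 normalised counts per library, which are TMM-scaled CPM over the listed regions. Endothelial and fibroblast markers had 0 of 5 genes each in the table. Single markers of other cells were at 48.5 and 84.4 against 103 and 103 for Cd74 (macrophage, 1 of 5 measured) and at 32.3 and 45.1 against 54.1 and 18.8 for Hba-a2 (red cell, 1 of 4), control first. The smooth muscle and pericyte list (2 of 5) stood at 84.0 and 154 against 151 and 187. Lpl, the 1 of 4 genes of the adipocyte list, stood at 3232 and 3229 against 4138 and 3956. Hopx (1 of 3 of the lung list) stood at 152 and 175 against 202 and 238, and Ckm (1 of 5 of the skeletal muscle list) at 780.2 and 677 against 676 and 639.7. Which heart cells these counts come from was not tested, so Lpl, Hopx and Ckm do not measure fat, lung or skeletal muscle here. The part of all these markers in the results was not tested.

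The region over Snord17 and Snx5 was lower in knockout hearts, at 330.0 and 345 normalised counts against 481 and 507 in control. Both knockout libraries lay below both control libraries. The group means were 337 ± 10.6 and 494 ± 17.9 (SD, n = 2), a level 0.682 times that of control. In edgeR's quasi-likelihood test, adjusted by the Benjamini-Hochberg method over all 558 regions, the log2 fold change was -0.55 ± 0.14 (SE; 95% interval -0.83 to -0.27; adjusted p = 0.0138). Its raw counts were 298 and 348 for the control libraries against 360 and 220 for the knockout libraries, so the raw counts overlapped and the difference appears only relative to the rest of each library. As a share of the listed counts the region held 0.0442% and 0.0507% in control and 0.0391% and 0.0317% in knockout. The 95% Wilson interval of knockout replicate 1 (0.0353% to 0.0433%) overlapped that of control replicate 1 (0.0394% to 0.0495%), and these intervals cover counting error only. They treat every count as independent, which was not tested, although all 4 counts of the region are even numbers. The listed gene of the region is Snord17, which lies in an intron of Snx5 on the same strand. The 2 genes share the region, so the counts cannot be assigned to Snord17 or to Snx5 alone.

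This was the 1 member region of 4 that passed the test, where 3.94% of all regions were called, 1.61% lower and 2.33% higher. The call held without control replicate 1 (adjusted p = 0.00988). It was lost without control replicate 2 (0.0647), without knockout replicate 1 (0.154) and without knockout replicate 2 (0.0533). It was also lost with all 4 libraries when scaled to totals alone (edgeR adjusted p = 0.768) or to the 18S ribosomal RNA region (0.918), with a replicate block (0.263) and in the DESeq2 Wald test (0.318). In the 4 fits that left out a library its log2 fold change stayed between -0.59 and -0.52. All 4 counts of the region are even numbers, as were 77.9% to 83.3% of counts below 200 in each library, and with counts halved the region stood at -0.55 (adjusted p = 0.0178).

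**Figure D1:**
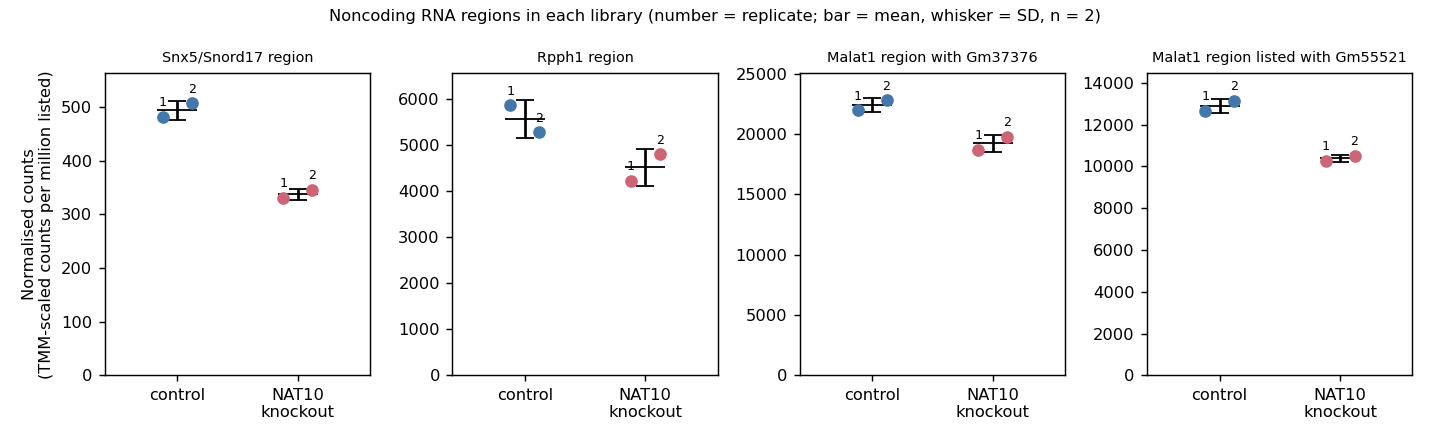
Normalised counts of the 4 regions in each library (vertical axis from 0; points are libraries with their replicate number, bars the mean and whiskers the SD, n = 2). In each panel both knockout libraries lie below both control libraries, and the Snord17 and Snx5 region has the widest relative gap, 337 against 494.

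The Rpph1 region stood at 5868 and 5283 normalised counts in control and at 4235 and 4806 in knockout. The groups did not overlap, although the lower control and the higher knockout library lay closer to each other than the libraries within either group did. The means were 5576 ± 414 and 4520.2 ± 403 (SD, n = 2), a level 0.810 times that of control. The log2 fold change was -0.30 ± 0.17 (SE; 95% interval -0.64 to 0.04), which did not pass edgeR's quasi-likelihood test (adjusted p = 0.342, unadjusted p = 0.0778). The interval spans both no difference and a fall larger than the one fitted for Snord17. Rpph1 took 0.538% and 0.529% of the listed counts in control and 0.502% and 0.442% in knockout, again without overlap.

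The Malat1 region with Gm37376 stood at 21972 and 22801 normalised counts in control and at 18717 and 19749 in knockout. Means were 22387 ± 586 and 19233 ± 729.6 (SD, n = 2). Its fitted log2 fold change of -0.22 ± 0.23 (SE; 95% interval -0.68 to 0.24) did not pass (edgeR adjusted p = 0.629). The listed gene of this region is Gm37376, on the plus strand, whereas Malat1 is on the minus strand. No source used here states how strand was handled, so the region's counts cannot be assigned to Malat1 or to Gm37376 alone.

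The Malat1 region listed with Gm55521 stood at 12644 and 13132 in control and at 10271 and 10505 in knockout, with means of 12888 ± 345 and 10388 ± 165 (SD, n = 2). Its log2 fold change was -0.31 ± 0.20 (SE; 95% interval -0.72 to 0.10; edgeR adjusted p = 0.421). The DESeq2 Wald test gave an unadjusted p of 0.0377 and an adjusted p of 0.518. On this scale both Malat1 regions were lower in both knockout libraries than in both controls. As shares of the listed counts they were not: the 2 regions together held 3.18% and 3.60% in control and 3.43% and 2.78% in knockout, so knockout replicate 1 lay between the controls. The TMM factors that make this difference were 0.92 and 1.00 for control but 1.18 and 0.92 for knockout. Summed per gene, with the region shared with Gm37376 counted as Malat1, Malat1 stood at -0.22 ± 0.18 (edgeR adjusted p = 0.550).

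In normalised counts all 4 member regions had both knockout libraries below both controls, which held for 22.2% of all regions. Malat1 and Rpph1 are among the 28 regions with a mean of at least 4000 normalised counts, a level chosen after the values were seen. Of the 25 others there, 23 had a log2 fold change below 0, with a median of -0.20 and a range from -0.37 to 0.36, and 0 passed the edgeR test (0 at an unadjusted p below 0.05, against 19% of all 558 regions, and 0 by DESeq2, which called 5 of 558). The edgeR fit shares dispersion among regions, so the absence of calls there does not measure these regions' own spread. The values of Malat1 and Rpph1 lie within that range. Of those 25 regions, 4 had both knockout libraries below both controls. The Snord17 and Snx5 region is among 245 regions between 100 and 1000 normalised counts, where the other 244 had a median of -0.01, 126 of them below 0, and 8 stood lower than it. The median over all 558 regions was 0.01.

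**Figure D2:**
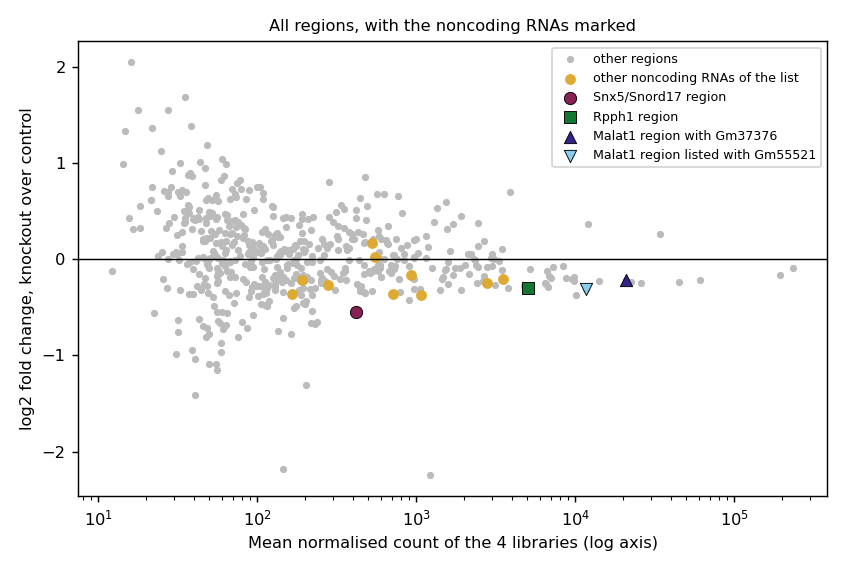
The log2 fold change of knockout over control (vertical axis) against the mean normalised count of the 4 libraries (log axis) for all 558 regions, with the member regions and the other noncoding RNAs marked. Most abundant regions lie below 0, Malat1 and Rpph1 among them, while the Snord17 and Snx5 region lies at the lower edge of its level.

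Ratios of 2 regions within a library need no scaling, so they were taken for each pair of member regions and against Rn7sk, the RNA that holds the transcription elongation factor P-TEFb inactive. Per 100 counts of Rpph1, the Snord17 and Snx5 region had 8.20 and 9.59 counts in control and 7.79 and 7.18 in knockout. Per 100 counts of the Malat1 region with Gm37376 it had 2.19 and 2.22 in control and 1.76 and 1.75 in knockout, with means of 2.21 ± 0.0222 and 1.75 ± 0.0117 (SD, n = 2). Both knockout libraries were below both controls for each of these ratios. For the ratio to Malat1 the spread within a group was smaller than the counting error of the 220 to 360 numerator counts. That spread therefore does not measure how precise the difference is.

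Against the Malat1 region listed with Gm55521 the Snord17 and Snx5 region had 3.81 and 3.86 in control and 3.21 and 3.28 in knockout, and per 100 counts of Rn7sk it had 15.3 and 17.4 against 13.9 and 12.7. The knockout to control ratio was 0.843 relative to Rpph1, 0.795 and 0.848 relative to the Malat1 regions and 0.815 relative to Rn7sk. On the log2 scale the ratio to Rpph1, -0.25, became -0.13 without control replicate 2, and the others were -0.33 and -0.24 for the Malat1 regions and -0.30 for Rn7sk, the last becoming -0.20 without control replicate 2. So the Snord17 and Snx5 region was lower in knockout also relative to Rpph1, the 2 Malat1 regions and Rn7sk, without overlap in any of the 4 ratios. All 4 share the region's counts, on which its call also rests, so they are no separate support. The 2-sided exact permutation test of 2 against 2 libraries cannot go below p = 0.333, which each of these ratios gave (0.556 adjusted over the 10 ratios computed).

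Rpph1 moved close to Rn7sk, at 186 and 181 per 100 counts in control and 178 and 176 in knockout, a ratio of 0.966. Relative to the 2 Malat1 regions, Rpph1 overlapped between groups, at 0.943 and 1.01 times control, and both of these changed sign on the log2 scale without 1 library (the former to 0.02 without control replicate 1, the latter to -0.10 without control replicate 2 and -0.07 without knockout replicate 2). The 2 Malat1 regions kept nearly the same proportion within each group: the region with Gm37376 had 174 and 174 counts per 100 of the other in control and 182 and 188 in knockout (exact permutation p = 0.333, the smallest possible). The groups did not overlap, and the ratio of 1.07 between them is small. In edgeR's test for unequal change among regions of a gene, 1.75% of 57 genes were called, and Malat1 was not (Simes adjusted p = 0.998, unadjusted 0.810).

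**Figure D3:**
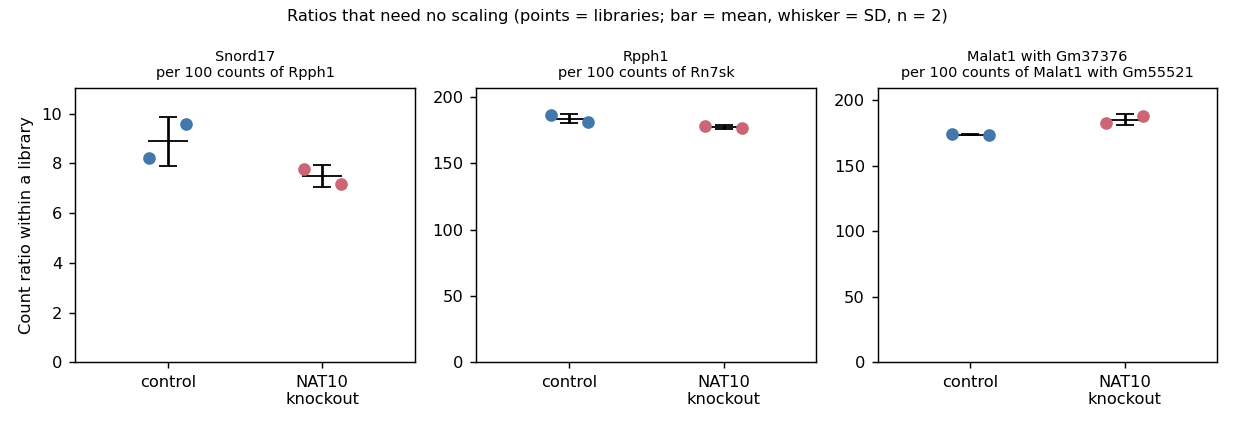
Counts of one region per 100 counts of another in the same library (vertical axes from 0; points are libraries, bars the mean and whiskers the SD, n = 2). Snord17 with Snx5 per Rpph1 falls from 8.90 to 7.49, Rpph1 per Rn7sk lies at 184 and 177, and the 2 Malat1 regions lie at 174 and 185.

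A list of 46 noncoding RNA genes of the nucleus and of small ribonucleoproteins had 12 genes in the table, in 14 regions that include those of Malat1, Rpph1 and Snord17. Of the 14, 1 was called lower (Snord17 with Snx5) and 0 higher, with 12 fitted values below 0 and a median of -0.26, against 271 of 558 below 0 and a median of 0.01 over all regions. Among the 10 regions that are no members, 8 were below 0, the median was -0.23 and 0 passed edgeR's test (2 at an unadjusted p below 0.05, a share near the 19% of all regions, and 0 by DESeq2). Both knockout libraries were below both controls in 7 of these 10 and above both in 1, where the shares over all regions were 22.2% and 25.3%.

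The vault RNA Vaultrc5, part of a large cytoplasmic ribonucleoprotein, stood at 1302 and 1109 normalised counts in control and at 849 and 1019 in knockout (log2 fold change -0.37 ± 0.12, edgeR adjusted p = 0.0900). Neat1, the scaffold RNA of paraspeckles, had 2 regions at -0.36 ± 0.13 (edgeR adjusted p = 0.109) and -0.26 ± 0.16 (0.392). Its larger region had 789.9 and 827 normalised counts in control and 688 and 561 in knockout. Neither the vault RNA nor Neat1 passed, and their groups did not overlap in the libraries.

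Rmrp, the RNA of the related ribonuclease MRP, stood at 3780 and 3710 in control and at 3003 and 3474 in knockout (-0.21 ± 0.15, edgeR adjusted p = 0.494). Rn7sk stood at -0.25 ± 0.14 (adjusted p = 0.357) and Snord118, the U8 nucleolar RNA needed for large-subunit ribosomal RNA processing, at -0.36 ± 0.20 (0.358). Scarna17, a Cajal body RNA, and Rny1, a Y RNA, stood at -0.21 ± 0.18 and -0.16 ± 0.13. Snord3a, the U3 nucleolar RNA, at 0.02 ± 0.13, and the Y RNA Rny3, at 0.17 ± 0.13, were the 2 list regions with values above 0. Neither passed. Snord3a is a box C/D RNA like Snord17, but its groups overlapped, at 504 and 581 normalised counts in control against 555 and 546 in knockout. Snord118, also a box C/D RNA, did not overlap, at 216 and 157.2 in control against 136 and 156.8 in knockout.

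**Figure D4:**
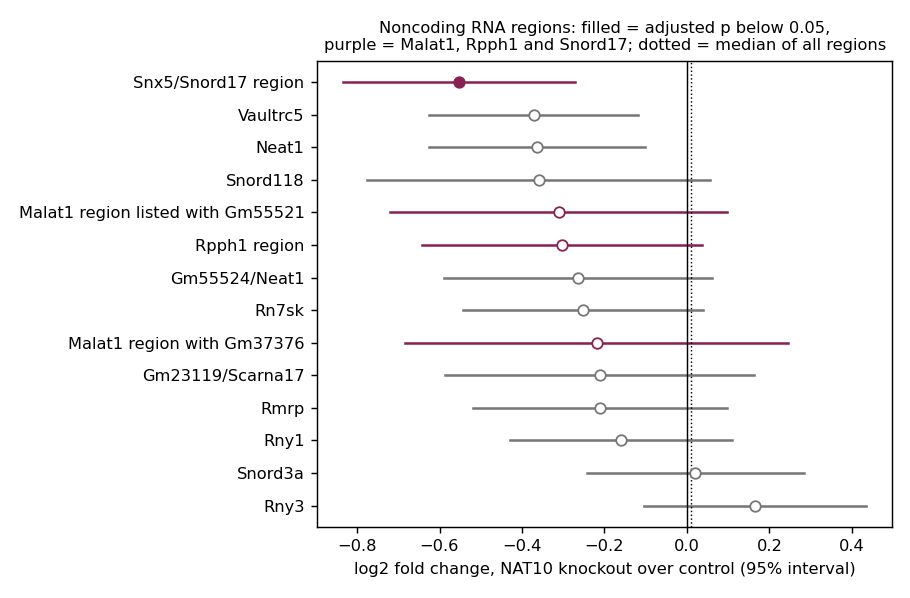
The log2 fold change of knockout over control with its 95% interval for the 14 noncoding RNA regions (horizontal axis; filled points passed the edgeR test, purple marks the member regions, the dotted line is the median of all 558 regions). The Snord17 and Snx5 region at -0.55 is the only filled point, and 12 of 14 points lie below 0.

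Proteins that act with these RNAs were not measured: 0 of 12 ribonuclease P protein genes, 0 of 10 small nucleolar ribonucleoprotein genes and 0 of 19 nuclear speckle genes of the lists were in the table. Of 13 genes of the sorting nexin and retromer list, 1 was there, Snx5 by the shared region.

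The pattern over the 4 libraries was most like that of Rn7sk for Rpph1, with a Euclidean distance of 0.06 between centred log2 normalised counts, followed by Vaultrc5 (0.10) and Ckmt2 (0.12), where the median distance to 412 named regions was 0.57. For the Snord17 and Snx5 region the nearest were Rplp1 (0.07), Cdv3 (0.09) and Kcnj11 (0.13), against a median of 0.71. Nearest to the Malat1 region with Gm37376 were Cox5b-ps (0.04), the region over Csl and Gm47578 (0.05) and Mb (0.05), and to the other Malat1 region Fabp3-ps1 with Ttc41 (0.05), Hspb8 (0.07) and the first Malat1 region (0.10). The median distances for the 2 Malat1 regions were 0.50 and 0.53. With 4 libraries many regions share a pattern, and these distances describe likeness only.

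The fitted values depended on the scaling. With totals alone the median of all regions shifted to 0.15 and with scaling to the 18S ribosomal RNA region to 0.22. The Snord17 and Snx5 region then stood at -0.42 and -0.36, without a call. Ribosomal RNA was removed before library preparation and itself carries ac4C, so the 18S reference may differ between libraries and groups, which was not tested. Rpph1 went from -0.30 to -0.18 with totals alone and -0.11 with 18S scaling. The Malat1 region with Gm37376 went from -0.22 to -0.09 and -0.03, and the other Malat1 region from -0.31 to -0.18 and -0.12. Relative to the median of all regions, the Snord17 and Snx5 region lay between -0.62 and -0.51 in the 14 alternatives that differ from the main test. Rpph1 lay between -0.44 and -0.21 relative to the median, the Malat1 region with Gm37376 between -0.30 and -0.18 and the other between -0.37 and -0.27. That -0.27 is from counts summed per gene, where the 2 Malat1 regions were fitted as a single sum. The highest value of the other Malat1 region by itself was -0.29, without knockout replicate 1. All 4 regions had fitted values below 0 in each of the 14, the smallest being that -0.03.

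**Figure D5:**
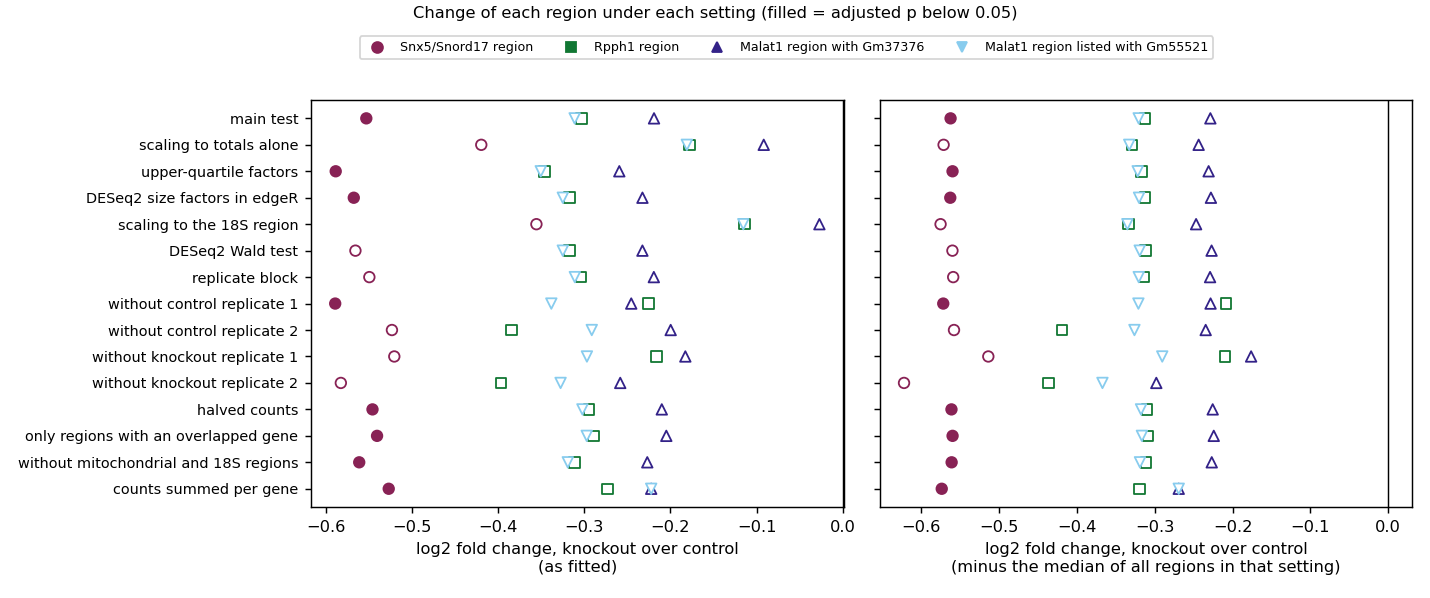
The log2 fold change of each member region (horizontal axis) in the main test and each of 14 alternatives (rows), as fitted on the left and minus the median of all regions on the right; filled points passed. The Snord17 and Snx5 region passed in 7 of the 14 alternatives and the other 3 regions in 0. On the right Rpph1 has the widest range, -0.44 to -0.21. In the row of counts summed per gene the 2 Malat1 regions are plotted at the same value, that of their sum.

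A positive log2 fold change in the authors' deposited table was read here as higher in control, a reading not checked against the counts. It is positive for 129 of 558 regions, all 4 member regions among them, where the main edgeR fit had 271 regions lower in knockout. The authors' deposited table gave 1.04 for the Snord17 and Snx5 region (p = 0.0338), 0.39 for Rpph1 (p = 0.0802), and 0.50 (p = 0.0462) and 0.12 (p = 0.120) for the Malat1 regions. Its q-values for all 4 were 1, and 0 of 558 regions had a q-value below 0.05 in the authors' deposited table. Those values rest on the same 4 libraries, and their sizes differ from the main fit, which gave -0.55, -0.30, -0.22 and -0.31 for knockout over control in the same order.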

How the data were processed

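Ribosomal RNA was removed from 1 ug of total heart RNA before library preparation, per the labels' protocols, and the series text describes capture with an ac4C antibody. FastQC, Salmon and mm10 appear without roles in the submitters' processing notes. No source used here gives the region caller or the handling of strand. The authors deposited whole-number counts per region (per the file headers), and in the same table their own log2 fold change, p-value and q-value, made with a tool that no source used here gives. Of 652 lines, 94 repeats of a region were merged, leaving 558.

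The main test was edgeR 4.0.16, run in R 4.3.3 (filterByExpr, which removed 0 regions, TMM, robust glmQLFit and glmQLFTest, Benjamini-Hochberg below 0.05 over all regions), with no replicate block. DESeq2 1.42.0 was an alternative. The biological coefficient of variation was 12.6%. Ratios were tested with an exact permutation test (scipy 1.17.1). Of the steps, only the edgeR test was run on simulated counts, with a single dispersion for all regions and larger fold changes than those of the member regions. Libraries were grouped by title. The members, lists and alternatives were chosen with earlier results of these data known. The named genes are the member regions, list genes and, for each member region, the 3 regions with the nearest pattern over the 4 libraries (log2 CPM, prior count of 2), without predicted and clone symbols.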

Additional observations from a re-analysis of the deposited data

How the results depend on the processing

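The direction of all 4 regions was the same in 14 alternatives. Running without the count filter repeated the main test, since the filter removed 0 regions. The Snord17 and Snx5 region lost its call with totals alone (-0.42), scaling to 18S (-0.36), the DESeq2 Wald test (-0.57) and a replicate block (-0.55), and without 1 library at a time it ranged from -0.59 to -0.52. For Rpph1 that range was -0.40 to -0.22, and 0 of 14 alternatives gave a call. The count of regions past the test was 22, and became 8 with totals alone, 6 with scaling to 18S, 5 with DESeq2 and 13 to 37 without 1 library. Whether the replicate numbers pair the samples is not stated, and same-numbered deviations correlated at -0.16. With the replicate block 1 region passed (the Snord17 and Snx5 region had an adjusted p of 0.263), and with crossed pairs, chosen after seeing the data, 42 passed. The cause of these differences was not tested. With 2 libraries a group the spread itself is poorly known.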

Other observations

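Of 38 host genes of small nucleolar RNAs in a fixed list, 4 were in the table, and 0 passed edgeR's test (0 at an unadjusted p below 0.05, 0 by DESeq2). The region over Snhg1 and Snord22 stood at 762 and 739.6 normalised counts in control and at 621 and 818 in knockout (log2 fold change -0.07 ± 0.13, edgeR adjusted p = 0.805), so its groups overlapped. The region over Gm25835 and Eif4a1, a translation initiation helicase gene, stood at -0.12 ± 0.14 (edgeR adjusted p = 0.672). The region over Hspa9, a mitochondrial chaperone gene, was listed with Gm22200 and stood at -0.11 ± 0.23 (0.825). The Tpt1 region stood at 0.01 ± 0.37 (0.996). Where a region is shared or listed with another gene, its counts were not assigned to the host gene alone. In 0 of the 4 did both knockout libraries lie on one side of both controls, where 22.2% of all regions lay below and 25.3% above.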
